A study of Mus musculus with 18 samples.

Results

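A set of 10 genes that build the glycocalyx of the colon epithelium was followed across 18 libraries of mouse colon organoids. The genes were chosen by name from a table of 56748 genes, with earlier results of these data known. They are 4 transmembrane mucins (Muc1, Muc4, Muc13 and Muc20) and 6 glycosyltransferases (C1galt1, Gcnt3, B3gnt7, B3galt5, Fut2 and B4galnt2). Organoids are epithelial cultures grown from tissue in a gel, and these came from the distal, mid or proximal colon of Mus musculus. Each region was grown in differentiation medium or in ENR + WntCM, the proliferative control, a medium that holds EGF, noggin and R-spondin with Wnt3a-conditioned medium. The switch was made 3 days after passaging, and each of the 6 groups has 3 libraries of poly-A selected RNA. The labels list each region as a cell line, and genotype, strain, age, number of animals and the composition of the differentiation medium are not given in them. Nor do they say whether replicates came from separate animals or cultures, so p-values measure only the spread between these samples, which may be technical.

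The glycocalyx is the coat of glycoproteins and glycolipids on the apical surface of gut epithelial cells. Its transmembrane mucins carry dense O-linked glycans, which begin with one GalNAc sugar on serine or threonine, are built into core structures, and are then lengthened and capped by further transferases in the Golgi. In the colon these mucins form a barrier under the secreted mucus, and the caps, which include fucose and terminal GalNAc, are features that bacteria and their toxins bind or feed on.

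The libraries held 12827751 to 19938198 reads in differentiation medium and 13090322 to 18504587 reads in control medium. Epithelial markers summed to between 7719 and 10278 FPKM (fragments per kilobase of gene and unit of depth, a level scaled to gene length and depth) in the differentiation libraries, against 3412 to 7575 FPKM in the control libraries. Markers of cells outside the epithelium were low. The 6 immune markers summed to at most 3.46 FPKM. The highest of them was Cd68, at 0.261 to 3.43 FPKM and at or above 1 FPKM in 14 libraries, while the pan-leukocyte gene Ptprc reached at most 0.0130 FPKM. The 6 fibroblast markers summed to at most 0.176 FPKM with Col1a2 and Lum at 0 in every library, and the 3 endothelial markers summed to at most 0.663 FPKM. Proximal differentiation replicate 1 stood apart, with a first principal component score of 5.80 against 44.1 and 37.9 for the other libraries of its group and a summed level of 5 cycling-cell markers of 91.1 FPKM against 41.4 and 40.4 FPKM. Called differences that rest on it are also given without it.

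On the mm39 build the 10 genes lie on 7 chromosomes, 4 of them on chromosome 16. Muc4 (ENSMUSG00000118672) spans 32555015 to 32602754 on the plus strand of chromosome 16 and overlaps Muc20 (ENSMUSG00000035638, 32597793 to 32617805) on the minus strand. Muc13 (ENSMUSG00000022824) spans 33614407 to 33640304 and B3galt5 (ENSMUSG00000074892) 96037001 to 96121059 on the same chromosome. Muc1 (ENSMUSG00000042784) lies on chromosome 3 at 89136364 to 89140688, C1galt1 (ENSMUSG00000042460) on chromosome 6 at 7844842 to 7875687, and Gcnt3 (ENSMUSG00000032226) on chromosome 9 at 69938778 to 69945370. B3gnt7 (ENSMUSG00000079445) lies on chromosome 1 at 86230554 to 86235027, Fut2 (ENSMUSG00000055978) on chromosome 7 at 45298015 to 45315818, and B4galnt2 (ENSMUSG00000013418) on chromosome 11 at 95756769 to 95805717. All 10 are protein-coding, and each value is summed over the exons of the gene.

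Promoter windows running from 250 bases before to 50 bases after a transcript start were found for 8 of the 10 genes in RefSeq on GRCm38.p6, 11 windows in all. They were searched on both strands for TTTATNG (the CDX motif), CTTTGAT (TCF/LEF) and CAAAGTCC (HNF4), motifs of factors at work in the intestinal epithelium. The HNF4 motif, read on the opposite strand, and the TCF/LEF motif share the letters CTTTG, so 1 stretch can hold both. Of all 32851 mouse windows of this length, 10.9% hold the CDX motif, 3.73% the TCF/LEF motif and 1.42% the HNF4 motif. Of the 11 windows, 2 held a match. Muc4 had a CDX match on the opposite strand 37 bases before the start, and a window of Muc13 had an HNF4 match on the opposite strand 185 bases before the start. The windows of B3galt5 and B4galnt2, the pair with the widest range across groups among the transferases, are shown with those of Muc13 and Muc4, each 5′ to 3′ on the strand of its gene with motif matches in capitals. For B3galt5 the most upstream of its 3 windows is given.
B3galt5, chr16:96235551-96235850, plus strand: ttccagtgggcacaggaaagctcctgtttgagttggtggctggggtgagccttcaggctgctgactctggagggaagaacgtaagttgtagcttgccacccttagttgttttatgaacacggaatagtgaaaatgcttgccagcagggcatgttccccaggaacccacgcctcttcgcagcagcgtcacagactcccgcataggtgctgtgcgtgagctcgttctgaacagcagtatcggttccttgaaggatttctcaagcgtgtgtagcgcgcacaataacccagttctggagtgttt
B4galnt2, chr11:95914822-95915121, minus strand: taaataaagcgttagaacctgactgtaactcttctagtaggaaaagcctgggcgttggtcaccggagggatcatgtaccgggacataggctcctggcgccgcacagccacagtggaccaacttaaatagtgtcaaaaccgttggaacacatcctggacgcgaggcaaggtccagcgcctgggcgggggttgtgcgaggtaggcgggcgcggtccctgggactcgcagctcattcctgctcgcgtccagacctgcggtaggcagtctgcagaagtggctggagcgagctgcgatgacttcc
Muc13, chr16:33794239-33794538, plus strand: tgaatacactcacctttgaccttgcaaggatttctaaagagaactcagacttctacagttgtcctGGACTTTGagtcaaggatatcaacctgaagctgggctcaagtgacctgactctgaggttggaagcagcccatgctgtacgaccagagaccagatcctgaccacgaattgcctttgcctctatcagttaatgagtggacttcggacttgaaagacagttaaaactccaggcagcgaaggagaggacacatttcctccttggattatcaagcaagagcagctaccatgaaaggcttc
Muc4, chr16:32735636-32735935, plus strand: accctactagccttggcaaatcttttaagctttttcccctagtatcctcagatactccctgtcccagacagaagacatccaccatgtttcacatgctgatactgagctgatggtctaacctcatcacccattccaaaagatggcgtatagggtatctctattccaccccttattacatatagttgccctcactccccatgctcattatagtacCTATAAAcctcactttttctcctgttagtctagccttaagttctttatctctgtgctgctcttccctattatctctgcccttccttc
A match describes these letters alone and not a bound site.

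Differentiation medium went with higher levels of Muc13, B3galt5, B4galnt2, Fut2 and Gcnt3 in distal, mid and proximal organoids alike. Muc1 and Muc4 did not follow them: Muc1 fell in distal and Muc4 in mid organoids. Of the 10 genes, 9 reached 1 FPKM in at least 3 libraries and were tested; Muc20 did not. A gene is called here when its adjusted p, from limma with Benjamini-Hochberg adjustment over all 12896 genes tested, is under 0.05, and differences are on the log2(FPKM + 1) scale with their standard error. In distal organoids 8 of the 9 were called, 7 higher and 1 lower, where 62.9% of all tested genes were called, 31.6% higher and 31.3% lower. In mid organoids 7 were called, 6 higher and 1 lower, where the share of all genes was 63.5%, with 31.5% higher and 32% lower. In proximal organoids 5 were called, all higher, where 53.8% of all genes were called, 27.6% higher and 26.2% lower. Since most tested genes were called in each region, the number of calls says little by itself. The median difference of the 9 genes was 1.28 in distal, 1.28 in mid and 1.71 in proximal organoids, and the median of all tested genes was 0.00302, 0 and -0.0147 in the same order.

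**Figure D1:**
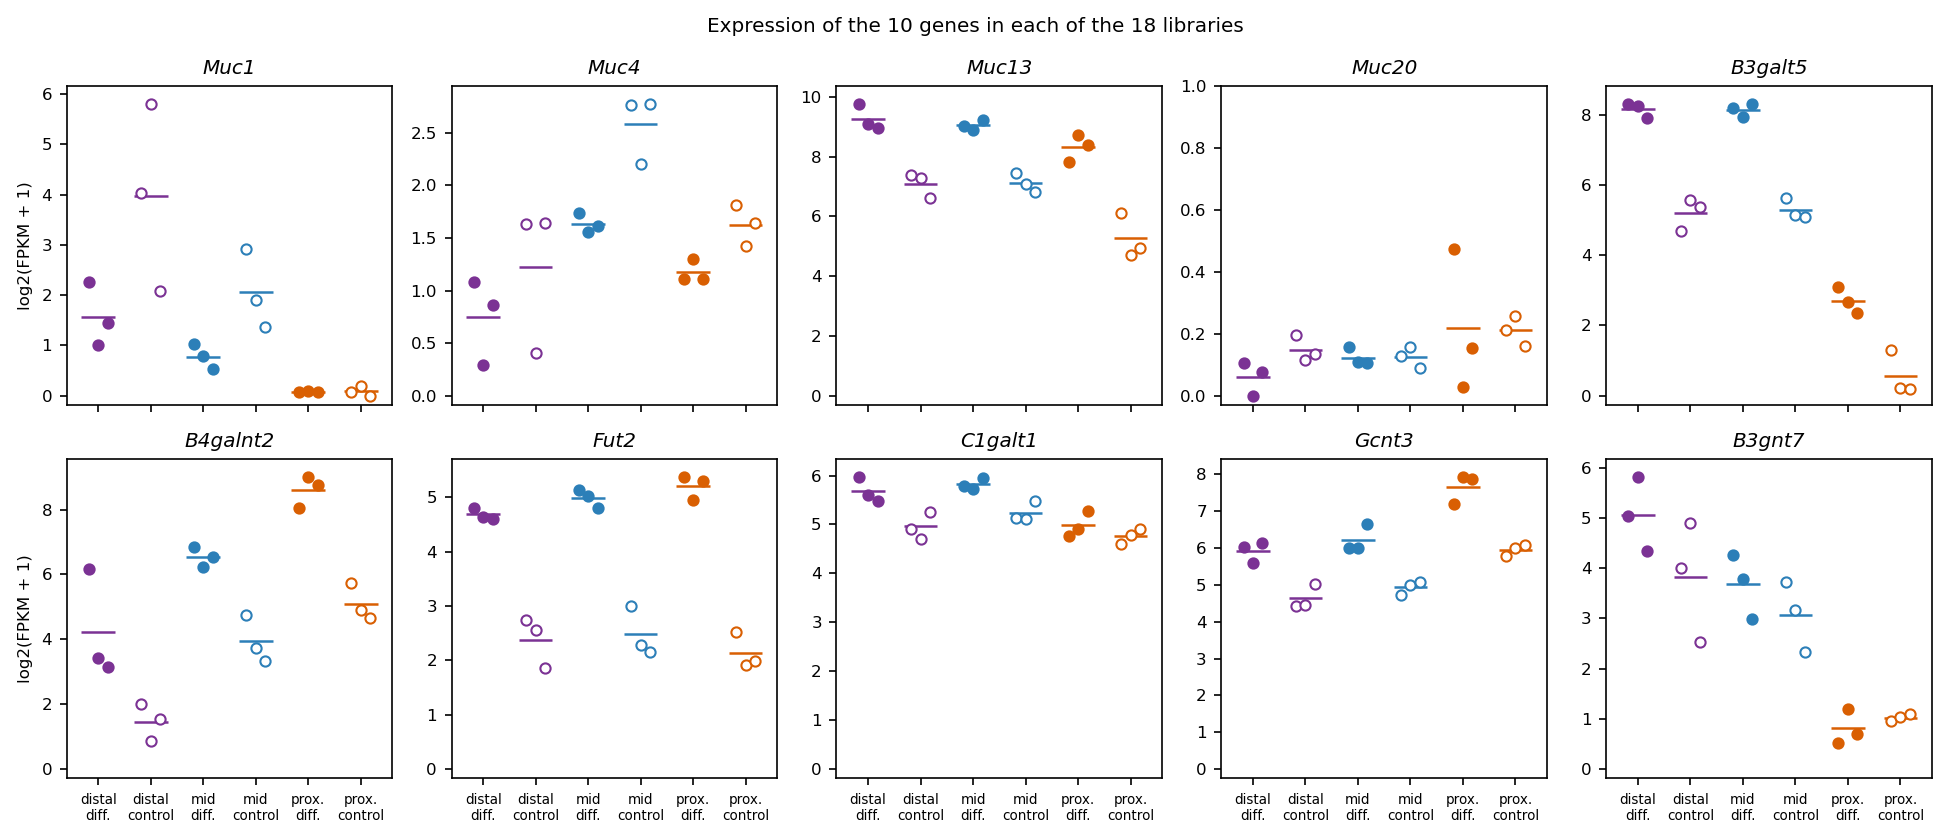
Level of each of the 10 genes on the log2(FPKM + 1) axis in every library, by region and medium, with filled points for differentiation medium, open points for control medium and a line at the mean of 3 libraries. The axes differ between genes, and Muc20 stays under 0.5 in all 18 libraries. In each medium the mean of B3galt5 is lowest and that of B4galnt2 highest in proximal organoids.

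Markers of cell types moved with the medium as well. Summed levels of 6 colonocyte markers were 13955 to 24570 FPKM in the differentiation libraries, against 294 to 2157 FPKM in the control libraries, and those of 8 goblet cell markers were 987 to 3461 FPKM, against 44.2 to 429 FPKM. Stem cell markers, 6 genes, summed to 4.13 to 11 FPKM in differentiation medium, against 65.1 to 75.9 FPKM in control medium. The 5 cycling markers summed to 27.6 to 91.1 FPKM, against 51.2 to 198 FPKM, and the 6 enteroendocrine markers were higher with differentiation medium in each region, at 39.2 to 82.6 FPKM in distal organoids, against 5.43 to 17.5 FPKM in control medium. The mitochondrial share of reads was 3.99 to 5.57% in distal, 4.25 to 4.93% in mid and 2.46 to 2.79% in proximal differentiation libraries, against 2.16 to 2.99%, 2.26 to 2.67% and 2.01 to 2.09% in the control libraries of those regions. The part of these shifts in any difference between the media was not tested, and in bulk RNA fewer cells of a type and less RNA per cell cannot be told apart.

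Among the mucins, Muc13, a transmembrane mucin abundant in the large intestine, was the highest of the 10 genes in distal organoids in either medium. In distal organoids Muc13 stood at 876, 542 and 491 FPKM in differentiation medium, against 167, 153 and 97.6 FPKM in control medium. Mid organoids had 525, 475 and 604 FPKM in differentiation medium, against 173, 135 and 112 FPKM in control medium. Proximal organoids had 225, 422 and 338 FPKM in differentiation medium, against 68.3, 25.4 and 29.8 FPKM in control medium. Every differentiation library was above every control library of its region, and the proximal replicate that stood apart was the lowest of the 9 differentiation libraries. The log2 difference of Muc13 was 2.17 ± 0.34 in distal (adjusted p = 6.61e-05), 1.94 ± 0.34 in mid (adjusted p = 0.000165) and 3.06 ± 0.34 in proximal organoids (adjusted p = 5.69e-06). Without that replicate the proximal difference was 3.30 ± 0.37 (adjusted p = 4.64e-06).

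Muc1, a transmembrane mucin whose cytoplasmic tail takes part in signalling, fell in distal organoids, the opposite direction to Muc13. It stood at 3.78, 1 and 1.73 FPKM in distal differentiation libraries, against 15.3, 55.3 and 3.22 FPKM in distal control libraries. In mid organoids the levels were 1.03, 0.722 and 0.439 FPKM in differentiation medium, against 6.61, 2.77 and 1.59 FPKM in control medium. Proximal organoids held almost none, with 6 reads over 3 differentiation libraries and 9 reads over 3 control libraries. The distal control libraries were far apart, and the lowest of them was below the highest distal differentiation library, while the mid groups did not overlap. The log2 difference was -2.40 ± 0.64 in distal (adjusted p = 0.00418) and -1.29 ± 0.64 in mid organoids, which was not called (adjusted p = 0.0900) but was with a pseudocount of 0.1 (-2.01, adjusted p = 0.0357), scaled to summed reads (-1.54, adjusted p = 0.0479) and with only the groups compared (adjusted p = 0.0146). Without distal control replicate 2, the library at 55.3 FPKM, the distal difference was -1.48 (adjusted p = 0.0198). That library also had the lowest sum of the 8 epithelial markers of its group, 3412 FPKM where the highest was 7261 FPKM, and the part of this in the result was not tested.

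Muc4, a very large transmembrane mucin that binds the receptor ErbB2, was low throughout. Its mid libraries held 2.33, 1.94 and 2.07 FPKM in differentiation medium, against 5.79, 3.60 and 5.86 FPKM in control medium, with no overlap. Distal libraries held 1.12, 0.227 and 0.817 FPKM in differentiation medium, against 2.11, 0.322 and 2.12 FPKM in control medium, and replicate 2 was the lowest of both distal groups. Proximal libraries held 1.16, 1.46 and 1.16 FPKM in differentiation medium, against 2.51, 1.68 and 2.12 FPKM in control medium. The log2 difference passed the test in mid organoids, at -0.94 ± 0.28 (adjusted p = 0.00871), and not in distal (-0.48 ± 0.28, adjusted p = 0.151) or proximal ones (-0.45 ± 0.28, adjusted p = 0.191). At a pseudocount of 0.1 the mid difference was no longer called (adjusted p = 0.0670). The distal difference was called without distal control replicate 2 (-0.89, adjusted p = 0.00280) and scaled to summed reads (-0.69, adjusted p = 0.0447). Muc20, a mucin that interacts with the receptor Met, lies across the end of Muc4 on the other strand and held 0 to 26 reads per library, a level of at most 0.389 FPKM. Whether the counting used strand is open in the labels, so reads of Muc20 and of the overlapped stretch of Muc4 cannot be told apart.

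**Figure D2:**
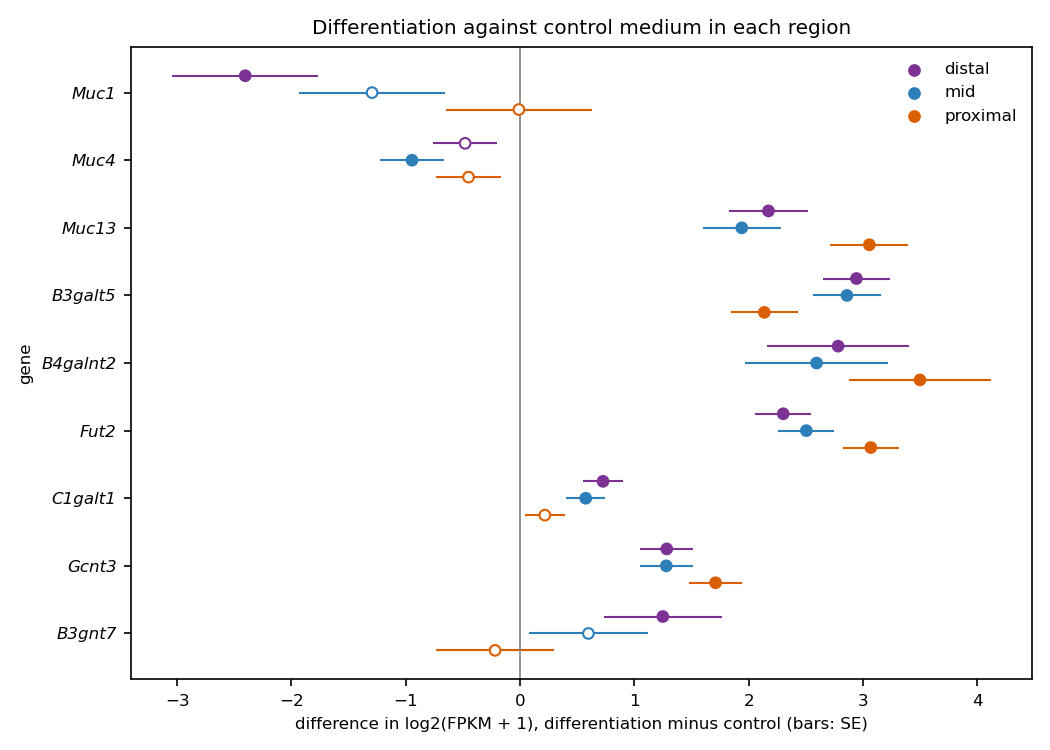
Difference between differentiation and control medium in log2(FPKM + 1) for the 9 tested genes in distal, mid and proximal organoids, with bars of 1 standard error and filled points where the adjusted p is under 0.05. Muc13, B3galt5, B4galnt2, Fut2 and Gcnt3 lie above 0 in all 3 regions, and Muc1 and Muc4 lie at or below 0.

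Of the enzymes that build the cores, Gcnt3 changed more than C1galt1. Gcnt3, which adds the branching GlcNAc of core 2 and core 4 in mucin-making tissues, had 64.9, 47.6 and 69.3 FPKM in distal differentiation libraries, against 20.6, 21.0 and 31.8 FPKM in distal control libraries. Mid libraries had 63.2, 62.8 and 99.2 FPKM in differentiation medium, against 25.4, 31.0 and 33.1 FPKM in control medium, and proximal libraries 146, 244 and 233 FPKM, against 54.6, 63.2 and 66.4 FPKM. No differentiation library overlapped the control libraries of its region. The log2 difference of Gcnt3 was 1.28 ± 0.23 in distal (adjusted p = 0.000208), 1.28 ± 0.23 in mid (adjusted p = 0.000204) and 1.71 ± 0.23 in proximal organoids (adjusted p = 3.25e-05). Without proximal differentiation replicate 1 the proximal value was 1.95 ± 0.23 (adjusted p = 6.97e-06).

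C1galt1, the enzyme that adds galactose to the first GalNAc and so makes core 1, varied least of the 10 genes, with its highest group mean 2.11 times its lowest. Distal libraries had 61.8, 47.8 and 43.5 FPKM in differentiation medium, against 28.9, 25.2 and 37.4 FPKM in control medium. Mid libraries had 53.9, 52.1 and 60.6 FPKM in differentiation medium, against 34.2, 33.5 and 43.7 FPKM in control medium, and proximal libraries 26.3, 29.1 and 37.8 FPKM, against 23.4, 26.7 and 29.1 FPKM. The groups were apart in distal and mid organoids and overlapped in proximal ones. The log2 difference was 0.73 ± 0.17 in distal (adjusted p = 0.00189), 0.57 ± 0.17 in mid (adjusted p = 0.00891) and 0.22 ± 0.17 in proximal organoids, which was not called (adjusted p = 0.302). These calls depend on how libraries are scaled: with each library divided by its summed reads, the median of all genes moved to -0.35 in distal, -0.34 in mid and -0.26 in proximal organoids, and the difference of C1galt1 was 0.28 (adjusted p = 0.0931), 0.15 (adjusted p = 0.367) and -0.094 (adjusted p = 0.587) in that order. Scaled by TMM factors instead, the median of all genes was -0.0052, -0.0026 and -0.031, and the calls of C1galt1 did not change.

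Of the enzymes that lengthen the chains, B3galt5 rose in every region, while B3gnt7 was called in distal organoids alone. B3galt5 adds the galactose of type 1 chains, the backbone of Lewis a and Lewis b structures in humans. In distal organoids it stood at 318, 305 and 237 FPKM in differentiation medium, against 24.8, 46.8 and 40.5 FPKM in control medium. Mid organoids had 291, 245 and 316 FPKM in differentiation medium, against 48.5, 34.3 and 32.9 FPKM in control medium. Proximal organoids had 7.58, 5.39 and 4.08 FPKM in differentiation medium, against 1.47, 0.165 and 0.136 FPKM in control medium. Differentiation libraries were above control libraries throughout, and all 6 proximal libraries were below all 12 mid and distal libraries. The log2 difference was 2.94 ± 0.29 in distal (adjusted p = 1.13e-06), 2.86 ± 0.29 in mid (adjusted p = 1.30e-06) and 2.14 ± 0.29 in proximal organoids (adjusted p = 3.84e-05), where it was 1.94 ± 0.32 without proximal differentiation replicate 1 (adjusted p = 0.000142). As a ratio of group means the increase was 7.68-fold in distal, 7.35-fold in mid and 9.62-fold in proximal organoids. The proximal ratio is set by 1 library: without proximal control replicate 1, at 1.47 FPKM, it was 37.8-fold.

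B3gnt7, which adds GlcNAc to galactose and so extends poly-LacNAc chains, had 31.7, 55.4 and 19.3 FPKM in distal differentiation libraries, against 15.1, 28.8 and 4.8 FPKM in distal control libraries. Mid libraries had 18.1, 12.7 and 6.92 FPKM in differentiation medium, against 12.2, 7.93 and 4.06 FPKM in control medium, and proximal libraries 0.437, 1.29 and 0.627 FPKM, against 0.933, 1.05 and 1.13 FPKM. In distal and mid organoids each differentiation library was above the control library of the same number, but the groups overlapped. The labels do not say that the numbers pair libraries. Mid control and mid differentiation replicate 2 hardly deviated together from their group means over all tested genes (r = 0.043). The log2 difference was 1.25 ± 0.52 in distal organoids, just under the threshold (adjusted p = 0.0462), 0.60 ± 0.52 in mid (adjusted p = 0.328) and -0.22 ± 0.52 in proximal ones (adjusted p = 0.747). The distal call was lost without control replicate 1 (adjusted p = 0.0653), control replicate 3 (0.61, adjusted p = 0.269), differentiation replicate 1 (adjusted p = 0.0861) or differentiation replicate 2 (adjusted p = 0.191), with libraries scaled to summed reads (0.82, adjusted p = 0.183), with a pseudocount of 0.1 (adjusted p = 0.0618), with no filter (adjusted p = 0.107) and with only the groups compared (adjusted p = 0.118).

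Both capping enzymes rose in all 3 regions, Fut2 to like levels and B4galnt2 to very different ones. Fut2, the fucosyltransferase that makes the H antigen of gut epithelium and secretions, had 27.0, 24 and 23.4 FPKM in distal differentiation libraries, against 5.67, 4.90 and 2.61 FPKM in distal control libraries. Mid libraries had 34.1, 31.4 and 27.1 FPKM in differentiation medium, against 7.04, 3.89 and 3.45 FPKM in control medium, and proximal libraries 40.6, 29.8 and 38.5 FPKM, against 4.77, 2.75 and 2.95 FPKM. All 9 differentiation libraries were above all 9 control libraries. Fut2 differed by 2.30 ± 0.25 in distal (adjusted p = 1.94e-06), 2.51 ± 0.25 in mid (adjusted p = 7.76e-07) and 3.07 ± 0.25 in proximal organoids (adjusted p = 2.37e-07), where it was 2.98 ± 0.28 without proximal differentiation replicate 1 (adjusted p = 9.97e-07).

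B4galnt2, which adds the terminal GalNAc of the Sda antigen, was the highest of the 10 genes in the proximal differentiation group. Distal libraries held 70.9, 9.69 and 7.77 FPKM in differentiation medium, against 2.97, 0.805 and 1.88 FPKM in control medium. Mid libraries held 114, 74.2 and 91.4 FPKM in differentiation medium, against 26.2, 12.3 and 9.01 FPKM in control medium. Proximal libraries held 262, 515 and 428 FPKM in differentiation medium, against 52.2, 28.8 and 24.4 FPKM in control medium. The groups did not overlap in any region, and replicate 1 was the highest library in 5 of the 6 groups. The log2 difference of B4galnt2 was 2.78 ± 0.62 in distal (adjusted p = 0.00117), 2.59 ± 0.62 in mid (adjusted p = 0.00194) and 3.50 ± 0.62 in proximal organoids (adjusted p = 0.000296), where it was 3.78 ± 0.70 without proximal differentiation replicate 1 (adjusted p = 0.000370). Without distal differentiation replicate 1, the library at 70.9 FPKM, the distal difference was 1.82 (adjusted p = 0.00274). The 5 cycling markers summed to 63.5 FPKM in that library, against 27.6 and 35.8 FPKM in the other distal differentiation libraries, and their part in the result was not tested.

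Whether the response to the medium differed between regions was tested directly. For the distal response minus the proximal response, 0 of the 9 genes were called, where 8.24% of all tested genes were called, 4.16% higher and 4.09% lower; 2 had an unadjusted p under 0.05 in limma and 0 were called with voom weights on the recovered reads. Those 2 were Muc1 (-2.39 ± 0.91, adjusted p = 0.124) and Fut2 (-0.77 ± 0.35, adjusted p = 0.200). An F test over all 3 regions called 0 of the 9 genes, against 9.59% of all genes, with 0 at an unadjusted p under 0.05 and 0 with voom weights. Without distal control replicate 3 the Muc1 difference was called (-3.34, adjusted p = 0.00542), and without proximal control replicate 1 the F test called Muc13 (adjusted p = 0.0483). The proximal groups held only 6 reads of Muc1 in differentiation and 9 reads in control medium, so a proximal response of Muc1 could not be measured. Its difference in response thus restates its fall in distal organoids.

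The colon region separated the genes in both directions. In distal organoids relative to proximal ones, B3galt5 and B3gnt7 were higher and B4galnt2 and Gcnt3 lower in both media, Muc13 was higher in both, Muc1 was higher in control medium and C1galt1 in differentiation medium. In differentiation medium 6 of the 9 genes passed, 4 of them higher and 2 lower, where 29.9% of all tested genes were called, 15.6% higher and 14.3% lower. In control medium 6 were called, 4 higher and 2 lower, where the share of all genes was 10.5%, 5.57% higher and 4.98% lower. Both comparisons with proximal organoids in one medium, distal and mid, use the same 3 proximal libraries. For mid against proximal organoids 5 genes were called in differentiation medium, 3 higher and 2 lower, where the share of all genes was 29.4%, 15.6% higher and 13.7% lower. In control medium 5 were called, 4 higher and 1 lower, where 13.3% of all genes were called, 7.99% higher and 5.28% lower. The genes were chosen with earlier results of these data known, so these counts are no test of the set against all genes. The median difference of the 9 genes between distal and proximal organoids was 0.70 in differentiation and 0.24 in control medium, beside 0 and 0.0221 over all genes. Markers differed between regions too. Enteroendocrine markers summed to 39.2 to 82.6 FPKM in distal, 85.6 to 139 FPKM in mid and 12.5 to 17.3 FPKM in proximal organoids in differentiation medium, and to 5.43 to 17.5, 18.2 to 30.8 and 0.869 to 3.27 FPKM in that order in control medium. Cycling markers in control medium summed to 109 to 180 FPKM in distal, 152 to 198 FPKM in mid and 51.2 to 117 FPKM in proximal organoids, and the mitochondrial share in differentiation medium was lower in proximal libraries, as given above. Their part in the regional differences was not tested. With libraries scaled to summed reads the median of all genes moved to -0.10 for distal minus proximal in differentiation medium.

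**Figure D3:**
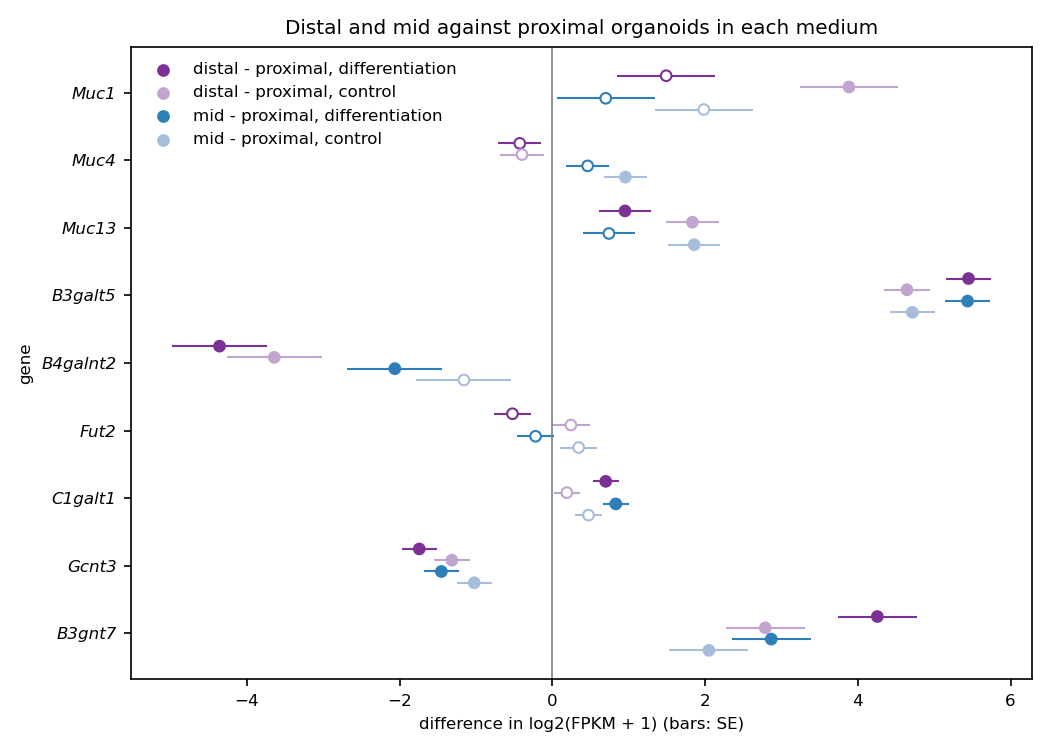
Difference of distal and mid organoids from proximal organoids in log2(FPKM + 1), in differentiation and control medium, for the 9 tested genes, with bars of 1 standard error and filled points where the adjusted p is under 0.05. B3galt5 and B3gnt7 lie above 0 and B4galnt2 and Gcnt3 below 0 in all 4 comparisons.

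On the log2(FPKM + 1) scale B3galt5 had the largest distal minus proximal difference of the 9 genes in both media. As a ratio of means in control medium that of Muc1 was larger, at 383, and with a pseudocount of 0.1 the control difference was 6.52 for Muc1 and 6.29 for B3galt5. The mean of B3galt5 was 287 ± 43.7 FPKM in distal and 5.69 ± 1.77 FPKM in proximal organoids in differentiation medium, and 37.4 ± 11.3 FPKM in distal and 0.591 ± 0.763 FPKM in proximal organoids in control medium (SD, n = 3 each). These are ratios of 50.5 and 63.2. The log2 difference was 5.45 ± 0.29 in differentiation medium (adjusted p = 1.99e-09) and 4.64 ± 0.29 in control medium (adjusted p = 2.86e-08). Mid organoids, at 284 ± 36.0 and 38.6 ± 8.65 FPKM, differed from proximal ones by 5.44 ± 0.29 (adjusted p = 2.42e-09) and 4.71 ± 0.29 (adjusted p = 2.36e-08). The control libraries of proximal organoids held 141, 22 and 14 reads of B3galt5, and without the first of these the distal to proximal ratio in control medium was 248. Without proximal differentiation replicate 1 the differences in differentiation medium were 5.65 for distal and 5.63 for mid organoids (adjusted p = 1.23e-08 and 1.31e-08).

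B4galnt2 ran the other way. Its mean was 29.5 ± 35.9 FPKM in distal, 93.2 ± 19.9 FPKM in mid and 402 ± 129 FPKM in proximal organoids in differentiation medium, and 1.89 ± 1.08, 15.8 ± 9.11 and 35.1 ± 14.9 FPKM in the same order in control medium. The distal minus proximal difference was -4.36 ± 0.62 in differentiation medium (adjusted p = 8.07e-05) and -3.64 ± 0.62 in control medium (adjusted p = 0.000999). The mid minus proximal difference was -2.06 ± 0.62 in differentiation medium (adjusted p = 0.0205) and -1.16 ± 0.62 in control medium, where the libraries overlapped and the gene was not called (adjusted p = 0.253). The mid call in differentiation medium was lost without proximal differentiation replicate 2 (adjusted p = 0.0707) or replicate 3 (adjusted p = 0.0583) without mid differentiation replicate 2 (adjusted p = 0.0673) or replicate 3 (adjusted p = 0.0520), and with no filter on low genes (adjusted p = 0.0506). Without proximal differentiation replicate 1 the differences in differentiation medium were -4.64 for distal (adjusted p = 0.000209) and -2.34 for mid organoids (adjusted p = 0.0222). FPKM is scaled to gene length, so the pair can be set side by side: B3galt5 was above B4galnt2 in all 6 distal libraries, by 4.49 to 58.1 times, and in all 6 mid libraries, by 1.85 to 3.65 times. In all 6 proximal libraries B4galnt2 was above B3galt5, by 34.5 to 179.6 times.

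**Figure D4:**
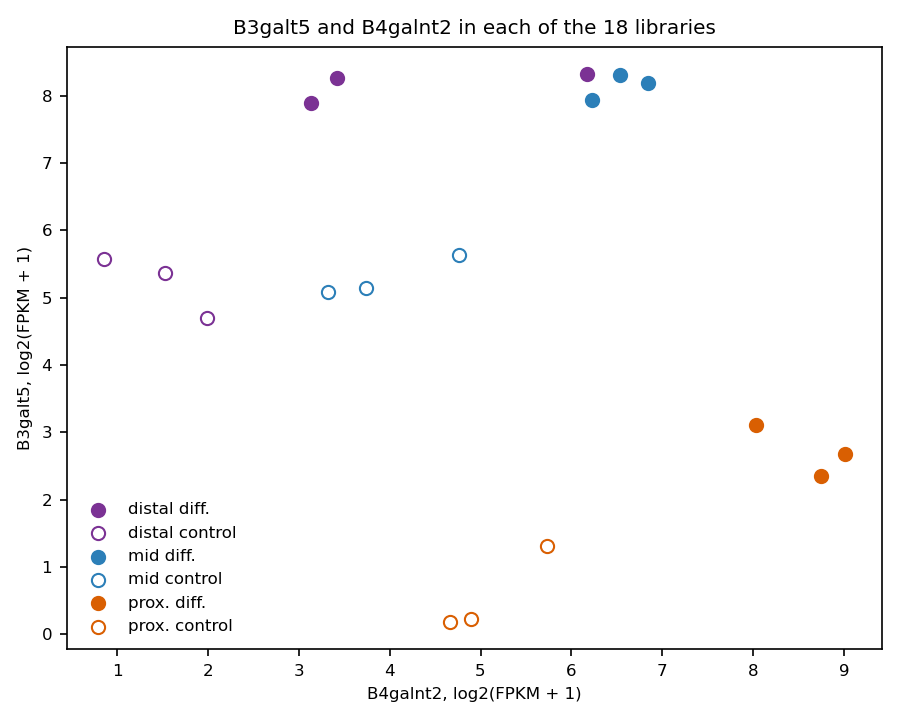
Level of B3galt5 against that of B4galnt2, both as log2(FPKM + 1), with a point for each of the 18 libraries, filled for differentiation and open for control medium. The 6 proximal libraries lie lowest, with the 3 proximal differentiation libraries farthest right, and within each region the differentiation libraries lie above and to the right of the control libraries.

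Gcnt3 was also lower towards the distal end. Its mean was 60.6 ± 11.5 FPKM in distal, 75.1 ± 20.9 FPKM in mid and 208 ± 53.6 FPKM in proximal organoids in differentiation medium, and 24.5 ± 6.38, 29.8 ± 3.99 and 61.4 ± 6.07 FPKM in that order in control medium. The distal minus proximal difference was -1.74 ± 0.23 (adjusted p = 4.05e-05) in differentiation and -1.32 ± 0.23 (adjusted p = 0.00129) in control medium. For mid minus proximal it was -1.45 ± 0.23 (adjusted p = 0.000233) and -1.02 ± 0.23 (adjusted p = 0.00812). Without proximal differentiation replicate 1 the differences of Gcnt3 in differentiation medium were -1.98 for distal and -1.69 for mid organoids, and those of B3gnt7, described next, were 4.11 and 2.72, with adjusted p of at most 0.00342. B3gnt7 followed B3galt5: its mean was 35.5 ± 18.3 FPKM in distal, 12.6 ± 5.6 FPKM in mid and 0.785 ± 0.449 FPKM in proximal organoids in differentiation medium, and 16.2 ± 12, 8.08 ± 4.10 and 1.04 ± 0.0976 FPKM in control medium. The distal minus proximal difference of B3gnt7 was 4.26 ± 0.52 (adjusted p = 1.67e-05) in differentiation and 2.79 ± 0.52 (adjusted p = 0.00200) in control medium. For mid minus proximal it was 2.87 ± 0.52 (adjusted p = 0.000650) and 2.05 ± 0.52 (adjusted p = 0.0159), and the last call was lost with voom weights (adjusted p = 0.0558) and without mid control replicate 1 (adjusted p = 0.0828) or replicate 2 (adjusted p = 0.0574) or proximal control replicate 2 (adjusted p = 0.0540) or replicate 3 (adjusted p = 0.0509).

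The mucins split as well. Muc1 was nearly absent from proximal organoids and present elsewhere: in control medium the mean was 24.6 ± 27.2 FPKM in distal, 3.66 ± 2.62 FPKM in mid and 0.0643 ± 0.0695 FPKM in proximal organoids, and in differentiation medium 2.17 ± 1.44, 0.732 ± 0.298 and 0.0558 ± 0.0107 FPKM. Every distal and mid library was above every proximal library. No proximal library reached 1 FPKM of Muc1, so it was tested only through mid and distal libraries. The filter thus favoured a call against proximal organoids. The distal minus proximal difference was called in control medium (3.88 ± 0.64, adjusted p = 0.000715) and not in differentiation medium (1.49 ± 0.64, adjusted p = 0.0939). With a pseudocount of 0.1 in place of 1, which weighs low levels more, the difference in differentiation medium was 3.67 (adjusted p = 0.00238), and that of mid minus proximal was 2.35 in differentiation (adjusted p = 0.0343) and 4.37 in control medium (adjusted p = 0.00156), against 0.70 (adjusted p = 0.456) and 1.98 (adjusted p = 0.0533) with a pseudocount of 1. Muc13 had means of 637 ± 209 FPKM in distal and 328 ± 98.5 FPKM in proximal organoids in differentiation medium, and 139 ± 36.8 and 41.2 ± 23.6 FPKM in control medium. Its difference was 1.83 ± 0.34 in control medium (adjusted p = 0.00212) and 0.95 ± 0.34 in differentiation medium (adjusted p = 0.0474). The call in differentiation medium was lost scaled to summed reads (adjusted p = 0.0673), with voom weights (adjusted p = 0.0533), with only the groups compared (adjusted p = 0.0811), with no filter (adjusted p = 0.105), and without proximal differentiation replicate 1 (0.70, adjusted p = 0.174), replicate 3 (adjusted p = 0.0816) or distal differentiation replicate 1 (0.70, adjusted p = 0.183) or replicate 2 (adjusted p = 0.0730). For mid minus proximal, Muc13 differed by 1.86 ± 0.34 in control medium (adjusted p = 0.00190) and by 0.74 ± 0.34 in differentiation medium, which was not called (adjusted p = 0.121).

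Muc4, C1galt1 and Fut2 differed from proximal organoids by at most 0.96 on the log2(FPKM + 1) scale. Muc4 was highest in mid organoids, and its mid minus proximal difference was 0.96 ± 0.28 in control medium (adjusted p = 0.0362) and 0.46 ± 0.28 in differentiation medium (adjusted p = 0.248). The control call did not hold at a pseudocount of 0.1 (adjusted p = 0.168), with voom weights (adjusted p = 0.0603), with no filter (adjusted p = 0.0748), or without mid control replicate 1 (adjusted p = 0.127) or 3 (adjusted p = 0.109) or proximal control replicate 2 (adjusted p = 0.139) or 3 (adjusted p = 0.0996). C1galt1 was higher in differentiation medium in distal (0.70 ± 0.17, adjusted p = 0.00630) and mid organoids (0.83 ± 0.17, adjusted p = 0.00195) than in proximal ones, at 0.59 (adjusted p = 0.0292) and 0.72 (adjusted p = 0.0101) without proximal differentiation replicate 1. Its control medium differences were 0.19 ± 0.17 (adjusted p = 0.576) and 0.47 ± 0.17 (adjusted p = 0.0842), the second of which was called scaled to summed reads (adjusted p = 0.0444) and with only the groups compared (adjusted p = 0.0472). For Fut2 none of these 4 differences was called; the distal minus proximal difference was -0.52 ± 0.25 in differentiation medium (adjusted p = 0.126) and 0.24 ± 0.25 in control medium (adjusted p = 0.621).

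Between distal and mid organoids 0 of the 9 genes were called in either medium, where 0.69% of all tested genes were called in differentiation medium, 0.209% higher and 0.481% lower, and 0.326% in control medium, 0.14% higher and 0.186% lower. In differentiation medium 3 genes had an unadjusted p under 0.05 in limma (Muc4, B4galnt2 and B3gnt7) and in control medium 3 (Muc1, Muc4 and B4galnt2); with voom weights 0 were called in either. B4galnt2 was lower in distal than in mid libraries without overlap, and the difference was -2.30 ± 0.62 in differentiation medium (adjusted p = 0.143) and -2.48 ± 0.62 in control medium (adjusted p = 0.153). Without distal differentiation replicate 1 the difference in differentiation medium was -3.26 (adjusted p = 0.00291). Muc4 was also lower in distal than in mid libraries without overlap. Its difference was -0.89 ± 0.28 in differentiation medium (adjusted p = 0.252) and -1.35 ± 0.28 in control medium (adjusted p = 0.0630). Without distal control replicate 3, Muc1 was called higher (2.85, adjusted p = 0.0159) and Muc4 lower (-1.56, adjusted p = 0.0398) in control medium. Same-numbered distal and mid control libraries deviated together from their group means (r = 0.177, 0.149 and 0.542). Mid control replicate 1 was more like distal control replicate 2 (r = 0.356), so the numbers do not pair all the libraries. With the replicate number as a block Muc4 was called in control medium (-1.35, adjusted p = 0.0197, against 0.0630 without the block).

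The other genes of the pathway were taken as 8 lists, also chosen with earlier results of these data known. Their counts are to be read against the share of all tested genes called with differentiation medium, 31.6% higher and 31.3% lower in distal, 31.5% and 32% in mid and 27.6% and 26.2% in proximal organoids. Among other transmembrane mucins and galectins, the galactoside-binding lectins, 7 of 11 genes in the table were tested, and differentiation medium gave 3 higher and 1 lower calls in distal, the same numbers in mid and 5 higher in proximal organoids. Muc3, another transmembrane mucin, rose by 4.17 in distal, 3.79 in mid and 3.86 in proximal organoids, to group means of 272, 402 and 149 FPKM, against 14.8, 28.4 and 8.87 FPKM in control medium. The galectins Lgals4 (1.61, 1.5 and 1.51 in the same order of regions) and Lgals3 (1.29, 1.41 and 1.38) rose in all 3. The median of the list was 0.68, 1.01 and 1.2, beside 0.00302, 0 and -0.0147 over all genes. Of the 5 gel-forming and secreted mucin genes 1 was tested, Muc2, the main component of intestinal mucus, which rose by 3.36, 2.48 and 2.62. Among 10 tested GalNAc transferases, the enzymes that start O-glycans, 6 rose in distal, 5 in mid and 3 in proximal organoids, the last near the share of all genes, and 0 fell in any region. The largest changes were in Galnt6 (1.79, 1.40 and 2.65), Galnt7 (1.09, 0.80 and 0.97) and Galnt4 (0.77, 0.82 and 1.10). The list's median was 0.41, 0.41 and 0.18.

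Of 15 other core and chain-extending enzymes tested, 9 rose and 2 fell in distal, 10 rose and 1 fell in mid, and 7 rose and 1 fell in proximal organoids. C1galt1c1, the chaperone that C1galt1 needs to fold, rose by 1.21 ± 0.13, 1.05 ± 0.13 and 0.91 ± 0.13, and Gcnt1, a core 2 enzyme, by 1.54, 1.48 and 0.88. B3galt6, which acts in the linker of glycosaminoglycans, fell, at -1.18, -1.30 and -1.53. The list's median was 0.74, 0.78 and 0.36. Of 9 sialyltransferases 4 rose and 1 fell in distal, 5 rose and 1 fell in mid, and 3 rose and 3 fell in proximal organoids, with medians of 0.62, 1.13 and -0.032 and a mean of 0.163 in proximal organoids, of the other sign. St3gal4 stood out at 3.79 ± 0.27, 3.86 ± 0.27 and 3.40 ± 0.27, with group means of 423, 434 and 203 FPKM in differentiation medium, against 29.7, 29.3 and 18.1 FPKM in control medium. St6galnac6 rose by 2.09, 2.10 and 1.49. Among 9 fucosyltransferases and blood group transferases other than Fut2 and B4galnt2, 4 rose and 3 fell, 4 rose and 2 fell, and 3 rose and 3 fell, with medians of 0.31, 0.025 and -0.016, the last beside a mean of 0.172. B4galnt3, which makes LacdiNAc, rose by 2.02, 2 and 2.46, and its relative B4galnt4 fell, at -1.27, -1.7 and -0.88. Of 3 tested carbohydrate sulfotransferases 2, 1 and 2 rose, with medians of 0.43, 0.37 and 1.71. Gal3st1, which makes sulfatide, rose by 1.49, 1.55 and 1.71. Gal3st2 reached 1 FPKM in the proximal differentiation libraries alone and was tested only through them, so its calls against that group, in these counts and the regional ones, were fixed by the filter. Of 19 genes of nucleotide sugar supply 8 rose and 3 fell, 8 rose and 4 fell, and 13 rose and 1 fell, with medians of 0.28, 0.21 and 0.39. Gfpt1, which controls entry into the hexosamine pathway, rose by 2.19, 2.12 and 2.59, Ugp2, which makes UDP-glucose, by 1.28, 1.26 and 1.47, and Slc35a2, the Golgi importer of UDP-galactose, by 1.13, 1.10 and 0.78.

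**Figure D5:**
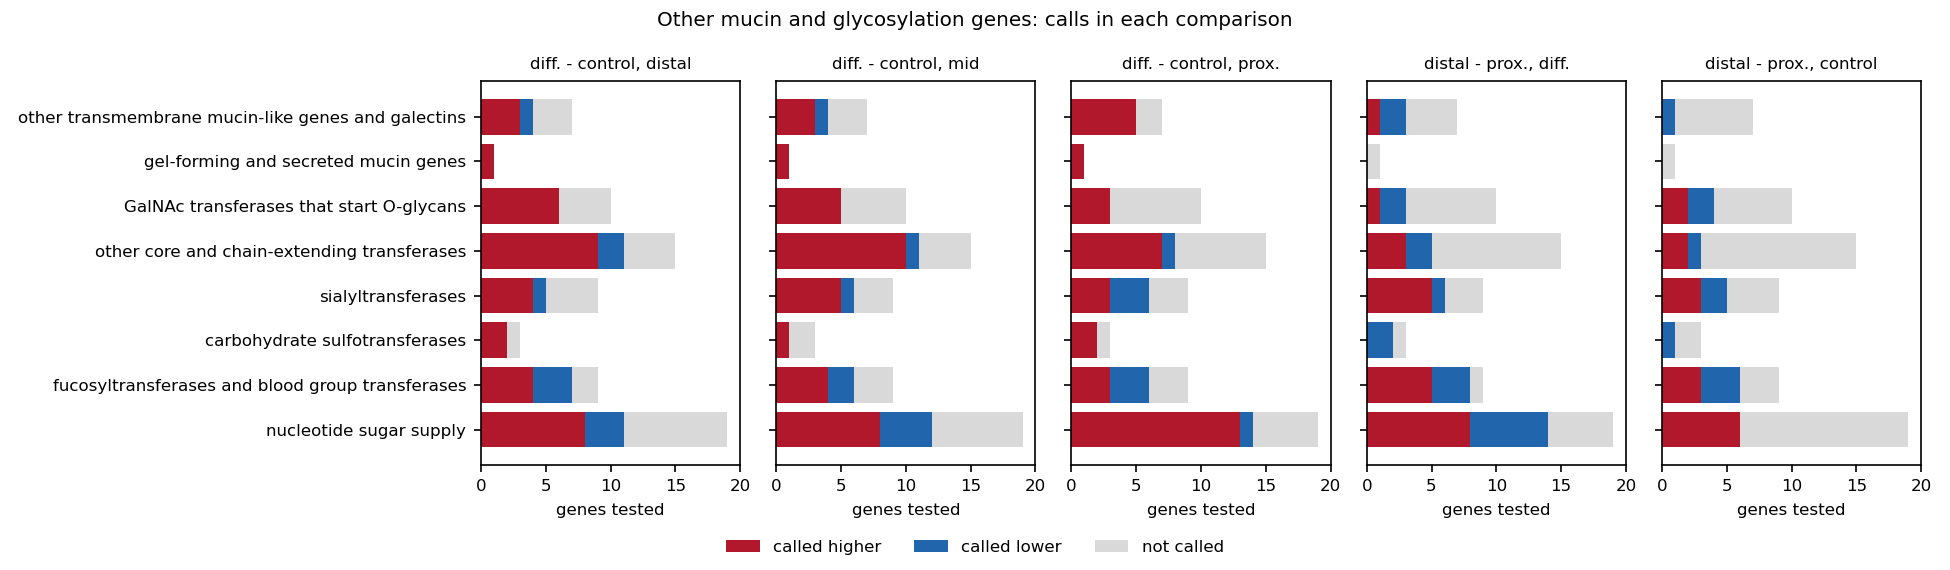
Number of tested genes in each of the 8 lists that were called higher, called lower or not called, in the 3 comparisons of differentiation with control medium and the 2 of distal with proximal organoids. No GalNAc transferase was called lower with differentiation medium, and 14 of 19 nucleotide sugar genes were called in distal minus proximal organoids in differentiation medium, where 29.9% of all tested genes were.

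By region, the share of all tested genes called between distal and proximal organoids was 15.6% higher and 14.3% lower in differentiation medium and 5.57% higher and 4.98% lower in control medium. In distal organoids relative to proximal ones, B3gnt5, which starts the lacto series of glycolipids, differed by 4.13 ± 0.17 in differentiation medium and 3.24 ± 0.17 in control medium, with means of 18.2 FPKM in distal and 0.0717 FPKM in proximal organoids in differentiation medium. At that proximal mean no proximal differentiation library reached 1 FPKM, so B3gnt5 was tested only through other groups. The list of core and chain-extending enzymes had 3 higher and 2 lower in differentiation medium and 2 higher and 1 lower in control medium; Gcnt4 was higher in control medium (1.23) and B4galt4 lower in differentiation medium (-0.93). Among the blood group and related transferases 5 were higher and 3 lower in differentiation medium, and 3 higher and 3 lower in control medium. Ggta1, which makes the alpha-Gal epitope of non-primate mammals, was lower by -3.16 ± 0.18 and -2 ± 0.18, and B4galnt1, a ganglioside synthase that also transfers GalNAc, by -2.85 ± 0.21 and -1.59 ± 0.21. Sialyltransferases had 5 higher and 1 lower in differentiation medium and 3 higher and 2 lower in control medium, including St3gal6 (2.86) and St3gal3 (2.65) in differentiation medium and St6galnac4 (2.16) and St6gal1 (-2.40) in control medium. Chst4, which adds sulfate to GlcNAc, was lower in both media (-1.91 and -1.51), and the other sulfotransferase call in differentiation medium was that of Gal3st2, lower through the filter as described, with 0 of 3 higher in either medium. Of the GalNAc transferases, 1 was higher and 2 lower in differentiation medium and 2 higher and 2 lower in control medium, with Galnt5 at 1.09 and 0.89, Galnt12 at -0.70 in differentiation medium and Galnt6 at 1.31 in control medium. Galnt5 was low, with distal and proximal means of 1.52 and 0.194 FPKM in differentiation medium and 0.967 and 0.0587 FPKM in control medium. No proximal library reached 1 FPKM of Galnt5, so it was tested only through mid and distal libraries. Of the transmembrane mucins and galectins, 1 was higher and 2 lower in differentiation medium and 1 lower in control medium, with Lgals2 at -3.47 and -2.43 and Muc3a at -1.58 in differentiation medium. Of the nucleotide sugar genes 8 were higher and 6 lower in differentiation medium and 6 higher and 0 lower in control medium. The sialic acid genes Gne (2.10 in differentiation medium) and Nans (1.39 in control medium) and the transporters Slc35a2 (1.14 in differentiation medium) and Slc35a3 (1.11 in control medium) led them. The medians of these lists in differentiation medium with more than 3 tested genes ran from -0.30 for transmembrane mucins and galectins to 1.01 for sialyltransferases, beside 0 over all genes, and Muc2 was not called in either medium.

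Across the 18 libraries, the genes whose log2(FPKM + 1) was most like each tested gene were found among 11033 protein-coding genes by Pearson's r. These values describe libraries that fall into 6 groups and share medium and region, so no p is given. For B3galt5 they were Pla2g10 (r = 0.990) and Golm1 (r = 0.985), for B4galnt2 Cdx2 (r = 0.930) and Gpat3 (r = 0.929), and for Gcnt3 Mvp (r = 0.972) and Pde5a (r = 0.961). Fut2 was nearest to Tppp and Rflnb (r = 0.982 each), Muc13 to Gm5485 (r = 0.985) and Tmem45b (r = 0.984), and B3gnt7 to Cela1 (r = 0.976) and Tcf7l1 (r = 0.965). C1galt1 was nearest to Dact2 (r = 0.941) and Gprc5a (r = 0.935), and Muc1 to Csad (r = 0.931) and Cp (r = 0.907). Muc4 had the lowest best value, with Ang4 (r = 0.842) and Klk6 (r = 0.826). Among the 9 genes themselves, the most opposed pair was Gcnt3 and Muc1 (r = -0.748), followed by B4galnt2 and Muc1 (r = -0.710).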

How the data were processed

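RNA was measured by poly-A sequencing of 18 mouse colon organoid libraries, 6 groups of 3. The authors deposited one FPKM value per gene and library, per the file headers, with the gene length and its mm39 position. The submitters' processing notes name HISAT2 2.0.5, featureCounts 1.5.0-p3 and mm39; no source used here names the annotation release. Times gene length, 100% of the values fell within 0.001 of a whole read count, so depth could be recovered. The library size behind the FPKM was 0.757 to 1.04 times the summed reads in differentiation libraries and 1.15 to 1.20 times in control libraries. How it was set is not stated. This factor goes with the medium in every comparison of the media. The 6 columns of group means by the authors were not tested, and 0 value columns were left unmapped.

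FPKM was analysed as log2(FPKM + 1), which understates folds of low genes, with limma 3.58.1 in R 4.3.3: 6 group means, all libraries, a variance trend, genes of at least 1 FPKM in at least 3 libraries, Benjamini-Hochberg adjustment over 12896 genes and a threshold of 0.05. The fit was tested on simulated data. Named list genes were up to 3 with the largest mean change among those called alike in all 3 regions, and up to 2 with the largest change in each distal minus proximal comparison. The members and lists were chosen with earlier results of these data known. Alternatives were a pseudocount of 0.1, no filter or 5 FPKM, scaling to summed reads or TMM, the replicate number as a block, only the groups compared, each library left out, and voom weights on recovered reads, which was added after seeing the data. Same-numbered libraries deviated together, with every correlation over 0.1, for distal control with distal differentiation (0.118, 0.223 and 0.158) and distal control with mid control (0.177, 0.149 and 0.542), and for no other pair of groups compared. In the latter pair mid control replicate 1 was closer to distal control replicate 2 (0.356), so the numbers do not pair all its libraries. Promoter windows are from RefSeq on GRCm38.p6 and were used for sequence only.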

Additional observations from a re-analysis of the deposited data

How the results depend on the processing

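Of 1526 recomputed values of single genes, 1443 kept their direction and their side of the threshold, 36 lost a call, 25 gained one and 22 changed sign. For Muc13, B3galt5, B4galnt2, Fut2 and Gcnt3 the higher level in differentiation medium was called in all 3 regions under every alternative run, and so was the distal minus proximal difference of B3galt5, B4galnt2, Gcnt3 and B3gnt7 in both media. The 22 sign changes were all in differences that were not called. The proximal medium difference of Muc1 was 0.010 with a pseudocount of 0.1, 0.36 with voom weights and -0.053 to 0.040 with 1 library left out, and that of C1galt1 was -0.094 scaled to summed reads. The distal minus proximal medium response of B3galt5 was -0.63 with a pseudocount of 0.1 and -1.16 with voom weights, against 0.81, and that of Muc4 was -0.44 to 0.20 with 1 library left out. The distal minus mid difference in control medium was -0.17 to 0.21 for Muc13, -0.28 to 0.17 for Fut2 and -0.25 to 0.19 for B3galt5 with 1 library left out; in differentiation medium it was -0.044 to 0.37 for Muc13 and -0.090 to 0.14 for B3galt5. The distal minus proximal difference of Muc4 in control medium was -0.60 to 0.015. The cause of these shifts was not tested.

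Counts of the 9 genes called moved as follows. In distal minus mid organoids in control medium the count was 1 scaled to summed reads, 1 with the replicate block and 0 to 2 with 1 library left out, against 0; in differentiation medium it was 0 to 1. Mid minus proximal in control medium had 3 with voom weights and 3 to 5 with 1 library left out, against 5. The regional difference in medium response and the F test each had 0 to 1. Counts over all genes moved most between distal and mid organoids: in control medium 20 with a pseudocount of 0.1, 74 with no filter, 6 with the filter at 5 FPKM, 6 with only the groups compared and 12 to 61 with 1 library left out, against 42; in differentiation medium 59, 164, 56, 19 and 37 to 117 in the same order, against 89. With only the groups compared, distal minus proximal had 2084 genes in differentiation medium, against 3856, and 755 in control medium, against 1360, and the response difference had 510, against 1063. With 1 library left out the ranges were 791 to 1540 for distal minus proximal and 892 to 1950 for mid minus proximal in control medium, against 1711, and 602 to 1299 for the response difference, which had 657 with voom weights. The replicate block changed 3 calls of single genes, all gained. Besides Muc4 above, they were Fut2 distal minus proximal in differentiation medium (adjusted p = 0.0360) and Muc1 mid minus proximal in control medium (adjusted p = 0.0383). The numbers do not pair all the samples in any of these comparisons. The block changed no other call of these genes. A negative binomial count test on the recovered reads was not run. With 3 libraries a group, differences near the threshold, and levels under about 1 FPKM, are weakly determined.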
